A study of Mus musculus with 193 samples.

Results

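The 38 genes described here encode the machinery that copies DNA in S phase and supplies its nucleotides. They were taken as a named list, chosen with earlier results of these data known, and all 38 were found among the 19557 genes of the deposited table. By role they fall into 4 origin licensing genes, 6 subunits of the MCM helicase, 7 genes of helicase activation, 4 polymerase genes, 6 genes of the sliding clamp and its loader, 4 genes of strand processing, 5 genes of nucleotide supply, and Slbp and Ung. RNA was measured in single testis cells of mice, sorted for the green fluorescence of the Id4-eGFP reporter, which marks expression of the stem cell gene Id4. At postnatal day 3 (P3) there were 71 wild-type (WT) cells and 69 whose genotype label is Rhox10 knockout (labelled KO), and at day 7 (P7) there were 53 WT cells. Rhox10 encodes a homeobox protein and lies on the X chromosome, and the reporter label is shared by the 3 groups. Letters in the sample titles, which the labels do not explain, split each group further. WT P3 comprises 16 cells lettered A and 55 lettered B. Labelled KO comprises 21 lettered A, 12 lettered B and 36 lettered C, and WT P7 comprises 12 lettered A and 41 lettered B. Each deposited sample is 1 cell and the labels name no animal, strain or extent of the deletion, so each group counts as 1 sample. No test was possible, and the spread between lettered sets is the only measure of how far a difference repeats.

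Replication starts when the origin recognition complex, with Cdc6 and Cdt1, loads the ring-shaped MCM helicase on DNA in G1. Cdc7 kinase, Mcm10, Cdc45 and the GINS complex then switch the helicase on, and primase, the replicative polymerases, the Pcna clamp and the nucleotide enzymes carry synthesis through S phase. Many of these genes are targets of E2F transcription factors, so their RNA is higher in dividing than in resting cells. Male germ cells are arrested as prospermatogonia before birth, re-enter the cell cycle in the first days after birth, and then form the dividing pool of spermatogonia to which stem cells belong.

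Promoter sequence was examined because many of these genes share E2F control. RefSeq promoters (GRCm38.p6) were matched for 32 of the 38 genes, and the table's windows, 250 bases before to 50 after the start of each transcript, were searched on both strands for the E2F letters TTTCCCGC, TTTGGCGC, TTTGCCGC and TTTCGCGC. These letters occurred in 12 of 32 genes (37.5%), namely Cdc6, Cdt1, Gins3, Lig1, Mcm3, Mcm5, Mcm6, Mcm7, Orc1, Pola1, Pold1 and Rfc3, and in 2.60% of 27025 genes with a promoter in the table. Counting only matches from −250 to −31, they occurred in 6 of 32 (18.8%; Cdc6, Gins3, Mcm5, Mcm6, Mcm7 and Pola1) and in 1.86% of genes. In the whole window the CHR letters TTTGAA occurred in 5 of 32 (15.6%) against 20.2% of all genes, and CCAAT in 20 of 32 (62.5%) against 41.1%. A window each of Mcm5, Mcm6, Pola1 and Rrm2, from −250 to −31, is shown 5′ to 3′ on the strand of the gene, with E2F letters in capitals. Mcm5 (plus strand) and Mcm6 (minus strand), helicase subunits, each hold a pair of overlapping matches, at −153 and −149 in Mcm5 and at −110 and −106 in Mcm6, and Mcm6 holds another at −47. Pola1 (minus strand), the catalytic subunit of polymerase alpha, holds 1 match at −138. That of Rrm2 (plus strand), the small subunit of ribonucleotide reductase, holds none of these letters. Pola1 and Rrm2 are shown because, in the cells labelled KO, their RNA differed least and most between set A and the mean of sets B and C, as described further on.
Mcm5, chr8:75109259-75109478: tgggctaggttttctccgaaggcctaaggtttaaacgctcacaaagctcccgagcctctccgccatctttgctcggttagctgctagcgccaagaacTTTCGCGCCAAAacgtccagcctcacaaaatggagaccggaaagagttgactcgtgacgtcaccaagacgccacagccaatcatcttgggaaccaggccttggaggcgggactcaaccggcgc
Mcm6, chr1:128359736-128359955: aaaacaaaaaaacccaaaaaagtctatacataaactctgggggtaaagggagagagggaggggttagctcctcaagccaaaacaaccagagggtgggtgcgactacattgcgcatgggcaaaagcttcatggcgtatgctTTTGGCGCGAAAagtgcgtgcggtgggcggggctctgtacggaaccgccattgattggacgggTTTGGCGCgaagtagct
Pola1, chrX:93632186-93632405: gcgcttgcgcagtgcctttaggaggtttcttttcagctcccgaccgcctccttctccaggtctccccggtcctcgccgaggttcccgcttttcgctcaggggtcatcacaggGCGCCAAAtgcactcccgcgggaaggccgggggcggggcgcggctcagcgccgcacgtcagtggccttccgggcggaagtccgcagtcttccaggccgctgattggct
Rrm2, chr12:24708004-24708223: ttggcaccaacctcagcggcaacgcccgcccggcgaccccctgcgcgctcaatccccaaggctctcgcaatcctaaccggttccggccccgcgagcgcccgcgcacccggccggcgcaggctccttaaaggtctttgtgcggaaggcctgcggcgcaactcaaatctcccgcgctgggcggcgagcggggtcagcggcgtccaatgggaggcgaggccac
A match is a run of letters, not a measured binding site. Genes with and without a match in the whole window had like values in the results that follow: the median correlation with the other members was 0.41 with and 0.43 without a match, and the median difference of labelled KO set A from sets B and C was −1.85 and −1.86.

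Values are in RPM, reads relative to all reads of the cell on a common scale. A level is the mean over cells of log2(RPM + 1), and a difference of 1 on that scale is called past 1 log2 unit. Cells held from 25424 to 1373776 reads on genes, and set medians ran from 485607 to 799402. Every cell had the germ cell genes Ddx4 or Dazl above 1 RPM. Rhox10 itself (chrX:38066475-38071691, gene positions being on GRCm38 throughout) had levels of 1.78 and 1.49 in the WT P3 sets, and of 2.48, 2.62 and 0.83 in the 3 labelled KO sets in letter order. Cells above 1 RPM numbered 15 of 21, 9 of 12 and 10 of 36 there, so in sets A and B the values go against the label, unless the deletion leaves the counted exons in place. Id4 had levels of 3.75 and 3.46 in WT P3 and of 1.14, 2.41 and 2.25 in labelled KO. Labelled KO set A stood apart in other ways: the mean level of 8 stem and progenitor markers was 2.00 there and 3.41 to 3.64 in the other 6 sets. All 7 Sertoli cell markers were above 1 RPM in some cell of that set, with a summed median of 22.8 RPM (range 0 to 1646), against medians of 0 to 11 RPM in the other sets. A single cell of that set held 1646 RPM of Sertoli markers and 12.3 RPM of Ddx4 and Dazl together, where the next lowest cell held 394 RPM. The median share of ERCC spike-in reads, higher where a cell gives less RNA, was 9.80% in that set, 8.90% and 7.92% in set A of WT P3 and of WT P7, and 5.15% to 6.39% in the rest.

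The sum of the machinery differed more between lettered sets of 1 label than between labels. The mean level of the 38 genes was 3.5 ± 0.51 (SD between cells) in WT P3 set A and 4.06 ± 0.46 in set B. Labelled KO set A stood at 2.54 ± 0.66, set B at 4.42 ± 0.53 and set C at 4.44 ± 0.47. In WT P7 it was 3.61 ± 1.10 in set A and 4.51 ± 0.47 in set B. The range between sets was thus 1.90 log2 units in labelled KO, 0.90 in WT P7 and 0.56 in WT P3. Single cells of labelled KO set A lay between 1.27 and 3.91, overlapping set B (3.52 to 5.56) and set C (3.24 to 5.76) only at the edge. WT P7 set A spanned 1.97 to 5.19, from below to well inside the range of set B (3.57 to 5.50).

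**Figure D1:**
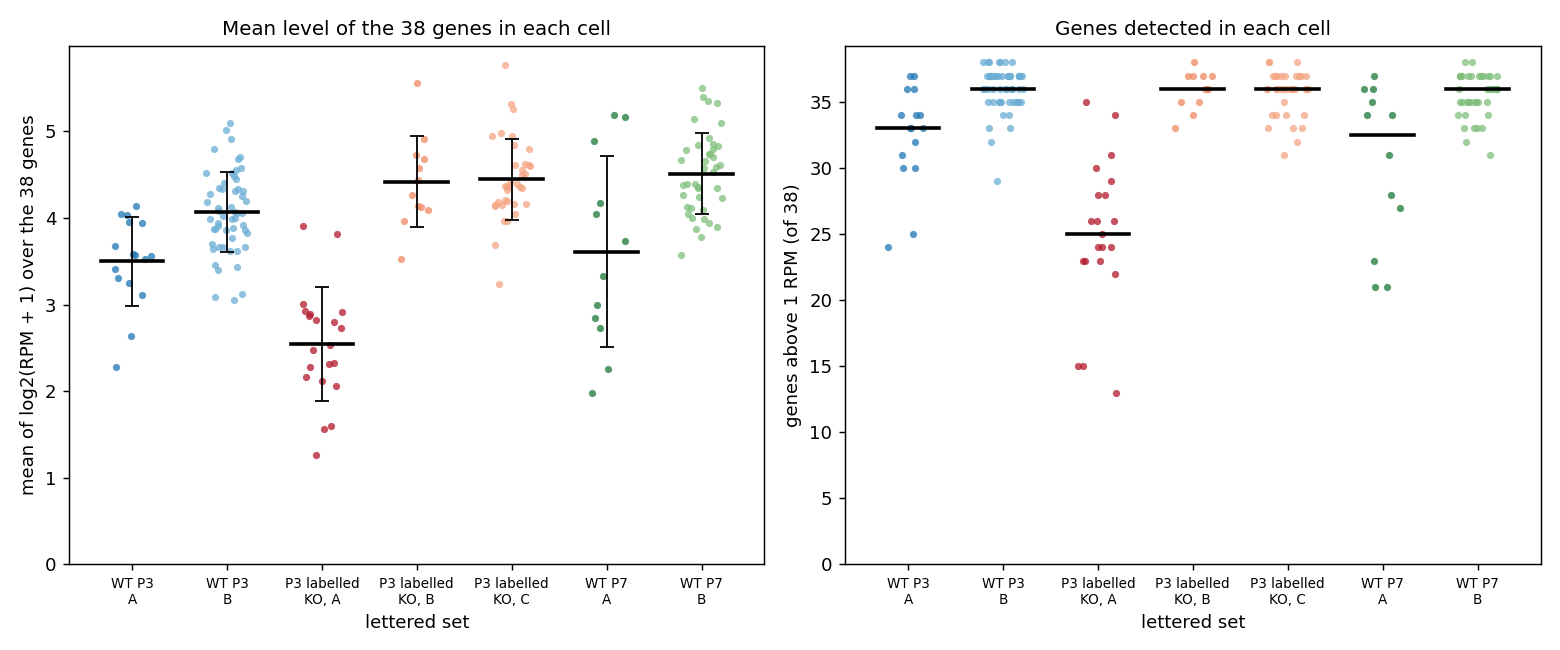
Left, mean log2(RPM + 1) over the 38 replication genes, and right, the number of them above 1 RPM, in each cell (points) by lettered set. Bars mark the mean on the left and the median on the right. Labelled KO set A lies lowest, with a mean level of 2.54 and a median of 25 genes above 1 RPM.

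Most cells carried RNA of most of the machinery. The median number of members above 1 RPM was 36 of 38 in WT P3 set B, labelled KO sets B and C and WT P7 set B, 33 in WT P3 set A, 32.5 in WT P7 set A and 25 (range 13 to 35) in labelled KO set A. After each cell was thinned to 100000 reads on genes, leaving out 5 shallower cells, the medians were 34 and 37 in WT P3, 25, 36.5 and 36 in labelled KO, and 32.5 and 36 in WT P7, so labelled KO set A stayed lowest at equal depth. At least 30 members were above 1 RPM in 4 of 21 cells of labelled KO set A (19%, exact 95% interval 5.45 to 41.9) and in 7 of 12 cells of WT P7 set A (58.3%, 27.7 to 84.8). The share was 87.5% (61.7 to 98.4) in WT P3 set A, 98.2% in WT P3 set B, and 100% in labelled KO set B (lower bound 73.5), labelled KO set C (90.3) and WT P7 set B (91.4). These intervals cover counting error only.

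The single genes are described by role, with levels on the log2(RPM + 1) scale in the lettered order of the sets. SDs between cells of 1 set ran from 0.35 (Gins3 in labelled KO set A) to 2.66 (Rrm2 in WT P7 set A). Counts here are not divided by length. Per kilobase of merged exons, the mean over WT P3 cells was highest for Rfc4 (19.8 RPM per kb) and Rpa2 (19.3), whose order was the reverse in set A (17.8 for both after rounding), then Mcm4 (14.5) and Mcm3 (14.3). It was lowest for Rfc5 (0.82), Ung (0.64) and Gins3 (0.45). Rfc4 and Rfc5, subunits of the same clamp loader, thus stood near opposite ends of this order.

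Among the licensing genes, Cdt1, which brings the helicase to the origin, stood at 3.53 and 3.63 in WT P3, 2.74, 4.56 and 4.63 in labelled KO, and 2.21 and 4.06 in WT P7. Cdc6, its loading partner, stood at 1.76 and 3.16 in WT P3, 0.85, 3.74 and 3.18 in labelled KO, and 2.46 and 2.60 in WT P7. Orc1, the large subunit of the origin recognition complex, stood at 1.48 and 2.88 in WT P3, 1.25, 2.44 and 2.48 in labelled KO, and 2.50 and 3.18 in WT P7. For all 3 genes 1 of the A sets was lowest, that of WT P7 for Cdt1 and that of labelled KO for Cdc6 and Orc1. Orc6 ran from 3.25 in labelled KO set A to 5.07 in WT P7 set B.

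The 6 helicase subunits had a mean level of 3.42 in labelled KO set A and of 4.86 to 6.10 in the other 6 sets. Mcm2 (chr6:88883474-88898780) had lowest, median and highest cells at 0.340, 11.9 and 55.2 RPM for labelled KO set A, 60.8, 96.6 and 250.3 RPM for set B and 68.4, 117 and 273 RPM for set C. Every cell of set A therefore lay below every cell of sets B and C for Mcm2. In WT P3 the same 3 values of Mcm2 were 4.67, 50.3 and 108 RPM in set A and 14.6, 76.5 and 224 RPM in set B, and in WT P7 they were 15.3, 90.2 and 272 and 35.8, 111 and 396 RPM. The WT sets overlapped widely at both ages. Mcm3 (chr1:20802968-20820312) ran at 0, 4.31 and 154 RPM for labelled KO set A, 42.2, 111 and 256 RPM for set B and 17.8, 89.1 and 237 RPM for set C. Its WT P3 sets had 7.49, 37.7 and 82.4 and 19.2, 55.4 and 152 RPM, and its WT P7 sets 0.383, 51.3 and 212 and 3.43, 82.2 and 326 RPM. The highest cell of labelled KO set A held more Mcm3 than the median cell of any other set, while its own median was the lowest. Mcm5 had levels of 4.41 and 4.89 in WT P3, 2.56, 4.76 and 5.45 in labelled KO, and 4.22 and 5.68 in WT P7, and Mcm7 of 4.21 and 4.64 in WT P3, 3.43, 5.08 and 5.33 in labelled KO, and 4.87 and 5.71 in WT P7. Both were lowest in labelled KO set A and highest in WT P7 set B. Mcm4 and Mcm6, the remaining subunits, ran from 4.55 to 6.45 and from 3.79 to 5.89 over the 7 sets.

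The genes of helicase activation had a mean level of 1.79 in labelled KO set A and of 2.66 to 3.90 in the other sets. Cdc7, the kinase that triggers origin firing, stood at 4.79 and 5.01 in WT P3, 4.36, 6.35 and 5.16 in labelled KO, and 3.73 and 4.69 in WT P7. Gins2 stood at 1.72 and 2.34 in WT P3, 1.41, 3.14 and 2.72 in labelled KO, and 2.78 and 2.85 in WT P7, and Gins4 at 3.23 and 3.39 in WT P3, 1.90, 4.22 and 3.59 in labelled KO, and 3.46 and 4.16 in WT P7. Gins3 was the least detected member, at 0.46 and 0.74 in WT P3, 0.10, 1.47 and 0.79 in labelled KO, and 0.56 and 0.92 in WT P7, and lay under the mean level of 1 that a gene needed to count as measured. Gins3 was above 1 RPM in 1 of 21 cells, 4.76% (0.120 to 23.8) in labelled KO set A and 6 of 12 cells, 50% (21.1 to 78.9) in set B, with exact 95% intervals in brackets. Mcm10 ran from 1.18 to 4.33 and Cdc45 from 2.19 to 4.79, both lowest in labelled KO set A, and Gins1 from 1.41 to 3.65. Part of the exon sequence of Gins2 (2758 of 4097 bases) overlaps that of Gse1, and the strand used in counting is not given, so its values are uncertain.

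Of the polymerase genes, Prim1 (chr10:128015168-128030037), the catalytic subunit of primase, varied most. Lowest, median and highest cells were 7.95, 26.1 and 103 RPM in WT P3 set A, 10.7, 39.9 and 108 RPM in set B, 0, 9.88 and 70.8 RPM in WT P7 set A and 4.85, 38.3 and 221 RPM in set B. In labelled KO they were 0, 8.94 and 41.6 RPM for set A, 17.9, 45.5 and 87.6 RPM for set B and 0.295, 35 and 117 RPM for set C. Set A of labelled KO and set A of WT P7 had the lowest medians, and cells of all sets overlapped. Pold1, the catalytic subunit of polymerase delta, had levels of 1.98 and 2.52 in WT P3, 1.29, 2.34 and 3.23 in labelled KO, and 2.29 and 3.71 in WT P7. Pole, that of polymerase epsilon, had 4.36 and 4.44 in WT P3, 4.05, 4.54 and 4.88 in labelled KO, and 5.15 and 4.99 in WT P7, and Pola1 (chrX:93304767-93632155) had 2.97 and 2.51 in WT P3, 2.44, 2.94 and 2.20 in labelled KO, and 2.13 and 2.03 in WT P7. Pole and Pola1 were the flattest polymerase genes, and Pola1 was lowest in WT P7 set B, where 17 of 37 measured members were highest.

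The clamp Pcna had levels of 4.14 and 4.25 in WT P3, 3.20, 4.62 and 4.80 in labelled KO, and 2.89 and 4.58 in WT P7. Cells of WT P7 set A lay at 0, 8.32 and 56.2 RPM and those of set B at 0.930, 26 and 111 RPM, given as lowest, median and highest. In labelled KO set A they lay at 0.884, 8.62 and 31.9 RPM. Pcna was thus low in both the WT P7 and the labelled KO set A, with overlap. The loader subunit Rfc2 had levels of 3.61 and 3.81 in WT P3, 1.92, 4.17 and 4.02 in labelled KO, and 2.71 and 4.41 in WT P7, and Rfc5 had 1.61 and 2.01 in WT P3, 1.18, 2.40 and 2.49 in labelled KO, and 2.94 and 2.77 in WT P7. Rfc5 differed from the rest of the loader in standing higher in both WT P7 sets than in all P3 sets. Rfc1, Rfc3 and Rfc4 ran from 5.29 to 6.32, from 1.77 to 4.32 and from 4.0 to 5.97. Rfc2, Rfc4 and Rfc5 share 952, 194 and 499 exon bases with Lat2, Eif4a2 and Wsb2.

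Among strand processing genes, the flap nuclease Fen1 had levels of 1.74 and 3.32 in WT P3, 1.67, 3.43 and 3.77 in labelled KO, and 2.45 and 4.02 in WT P7. Lig1, the ligase that joins Okazaki fragments, had 4.18 and 4.80 in WT P3, 3.25, 5.20 and 5.05 in labelled KO, and 4.54 and 5.41 in WT P7. Both were lowest in labelled KO set A and highest in WT P7 set B. Fen1 is uncertain, since 1909 of its 2422 exon bases overlap those of neighbouring genes. The single-strand binding subunits Rpa1 and Rpa2 ran from 3.35 to 5.39 and from 3.92 to 6.42.

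Nucleotide supply held the widest contrasts. Rrm2 (chr12:24708241-24714146), whose protein is made in S phase, had lowest, median and highest cells at 0, 0.159 and 17.2 RPM for labelled KO set A, 1.79, 25.9 and 123 RPM for set B and 0, 30.2 and 139 RPM for set C. Rrm2 was above 1 RPM in 6 of 21 cells, 28.6% (11.3 to 52.2) of labelled KO set A and 34 of 36 cells, 94.4% (81.3 to 99.3) of set C. In WT P3 it lay at 0, 4.85 and 39.8 RPM in set A and 0.132, 18.2 and 59.2 RPM in set B, and in WT P7 at 0, 3.99 and 163 and 0, 16.4 and 94.9 RPM. Rrm2 was therefore mostly missing from labelled KO set A, and its median cell was lower in set A than in set B of both WT groups. Rrm1 (chr7:102441695-102469771), the large subunit, had 0, 7.12 and 109 RPM for labelled KO set A, 23.3, 50.7 and 153 RPM for set B and 12.5, 92 and 276 RPM for set C. WT P3 cells had 0, 33.9 and 180.4 RPM in set A, then 11.4, 56.4 and 207 RPM in set B, and WT P7 cells had 0, 21.6 and 143 and 40.4, 108 and 272 RPM. Each A set was lower in its median than the other sets of its label, and all overlapped.

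Tyms (chr5:30058202-30073617), which makes thymidylate, lay at 0, 3.46 and 15.5 RPM in WT P3 set A, 0, 14.3 and 55.5 RPM in set B, 0, 18.9 and 82.9 RPM in WT P7 set A and 7.15, 24.1 and 181 RPM in set B. In labelled KO Tyms lay at 0, 1.08 and 16.4, 0.920, 9.86 and 25.5 and 3.05, 16.9 and 51.3 RPM in sets A, B and C. A Tyms pseudogene also has a row in the table, so reads could be split between the copies. Tk1, the thymidine salvage kinase, had levels of 2.23 and 2.35 in WT P3, 0.34, 2.10 and 2.60 in labelled KO, and 1.84 and 2.41 in WT P7, and was above 1 RPM in 3 of 21 cells, 14.3% (3.05 to 36.3) of labelled KO set A. Dut, which removes dUTP, ran from 3.16 to 4.35. Slbp, which binds histone mRNA, had levels of 4.75 and 5.33 in WT P3, 5.19, 5.73 and 5.50 in labelled KO, and 5.36 and 5.67 in WT P7, and Ung (chr5:114130386-114139323), which removes uracil from DNA, had 1.60 and 2.14 in WT P3, 1.57, 3.18 and 3.15 in labelled KO, and 2.09 and 2.66 in WT P7. Slbp was nearly flat, and Ung was higher in labelled KO sets B and C than in every other set.

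**Figure D2:**
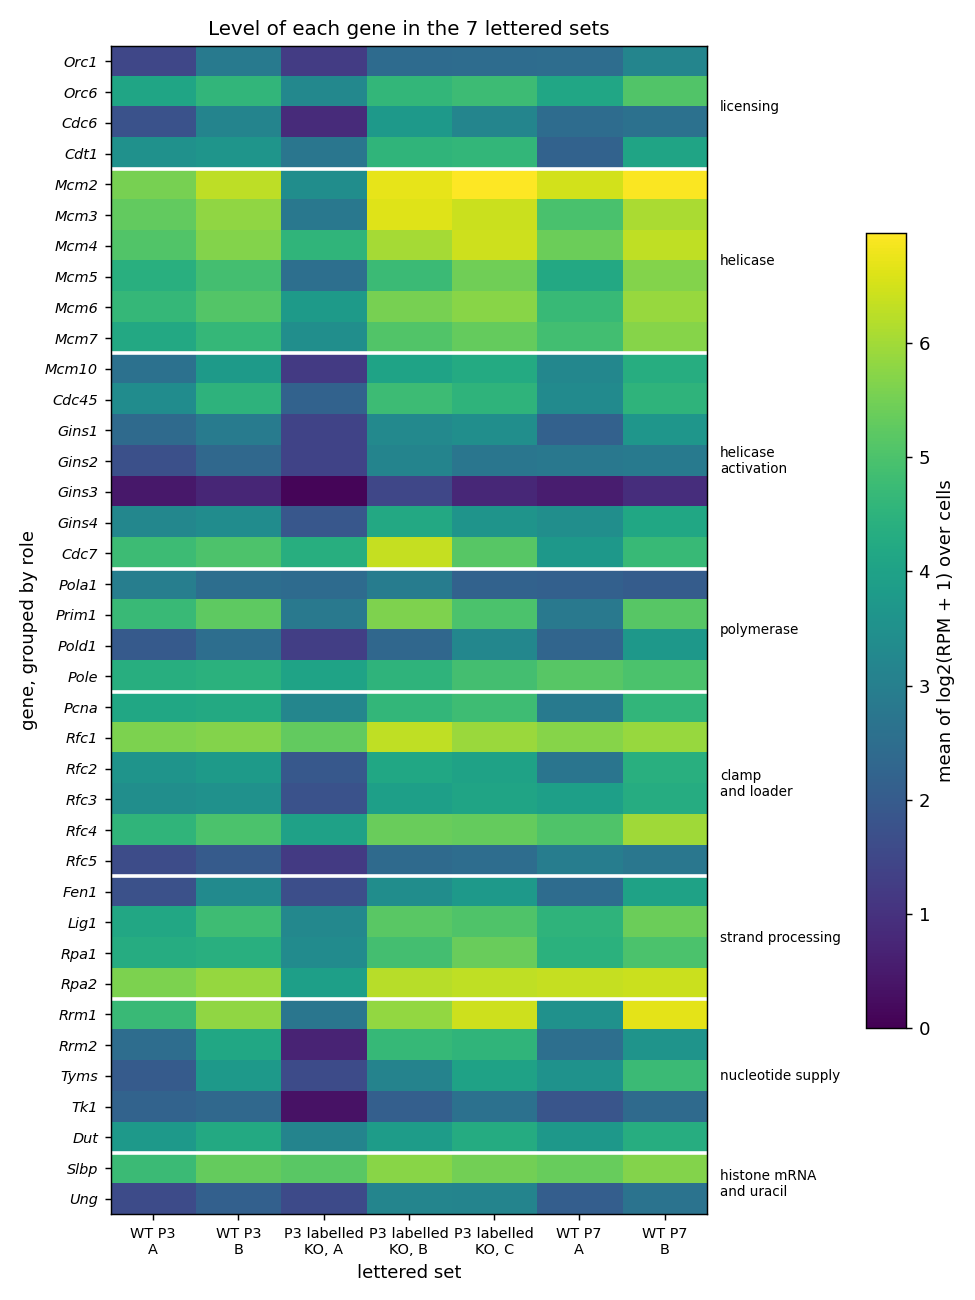
Mean log2(RPM + 1) of each of the 38 genes (rows, grouped by role) in the 7 lettered sets (columns), with the shade giving the level. Darker shades are lower levels. The labelled KO set A column is the darkest, with Rrm2 at 0.69 and Tk1 at 0.34 there, and Rfc1, Slbp and Pole vary little across the row.

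Cells labelled KO were compared with WT P3 cells, the contrast by which the study asks what Rhox10 does in newborn germ cells. The members as a whole lay close to 0: the median difference over the 37 measured genes was 0.01 log2 units, against 0.13 over all 7928 measured genes, with 20 members higher and 17 lower. No member was past 1 log2 unit, where 1.26% of all measured genes were past it higher and 0.669% lower. No member had the same sign in all 6 pairs of a labelled KO and a WT P3 set, where 17.1% of genes were higher and 5.26% lower in all pairs. The medians of single pairs ran from −1.49 to 1.01, so the spread between sets was far larger than the difference. That count of 0 describes 5 sets and no test was run.

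The members highest in labelled KO were Ung at 0.76 (−0.57 to 1.58), with the range over the 6 pairs in brackets, Slbp at 0.43 (−0.14 to 0.98), Fen1 at 0.42 (−1.66 to 2.03), Cdt1 at 0.40 (−0.89 to 1.10), Cdc7 at 0.39 (−0.65 to 1.57) and Gins2 at 0.39 (−0.93 to 1.42). The lowest were Tk1 at −0.61 (−2.01 to 0.37), Prim1 at −0.51 (−2.43 to 0.89), Mcm5 at −0.40 (−2.34 to 1.04), Rfc2 at −0.34 (−1.89 to 0.55), Mcm3 at −0.28 (−3.02 to 1.34) and Rrm1 at −0.26 (−3.07 to 1.72). Every one of these ranges crossed 0, with the low ends in pairs that include set A for the helicase and nucleotide genes. The median by role lay between −0.22 (nucleotide supply) and 0.60 (Slbp and Ung). Scaling mattered for direction: 23 of the 38 members kept their sign under the 4 other scalings, 8 of them higher and 15 lower, and relative to the reads on genes 29 of 37 were lower with a median of −0.25, where the median of all genes moved by −0.19.

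The result turned on set A. Without it, sets B and C of the cells labelled KO had 36 of 37 members above WT P3, with a median of 0.64 against 0.26 for all genes. The members past 1 log2 unit were Rrm2 (1.31), Ung (1.29), Fen1 (1.07), Cdt1 (1.01) and Cdc6 (1.00), 5 of 37 where 2.87% of all measured genes were past it. All 4 pairs were higher for 29 of 37 members and for 40.4% of all genes. That count of 29 depended on the scaling, being 12 relative to reads on genes (19.8% of genes), 13 by median ratio (18.4%), 23 by ERCC reads (42.7%) and 14 after thinning (19.1%). The distance of the members' median from that of all genes was steadier, at 0.38 as deposited and 0.37 to 0.40 under the 4 other scalings. Left out in turn, the other sets gave medians of −0.26 (without labelled KO set B), −0.28 (without C), −0.27 (without WT P3 set A) and 0.31 (without WT P3 set B). A single member was past 1 lower without labelled KO set B and without C, and 2 were past it higher without WT P3 set B. The matching shares of all genes were not computed, so nothing is read from these counts. Without the 1 cell low for Ddx4 and Dazl the median was 0.02, and without the cells above 50 RPM of summed Sertoli markers it was −0.03. Which group of sets stands for the genotype cannot be told from the labels.

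**Figure D3:**
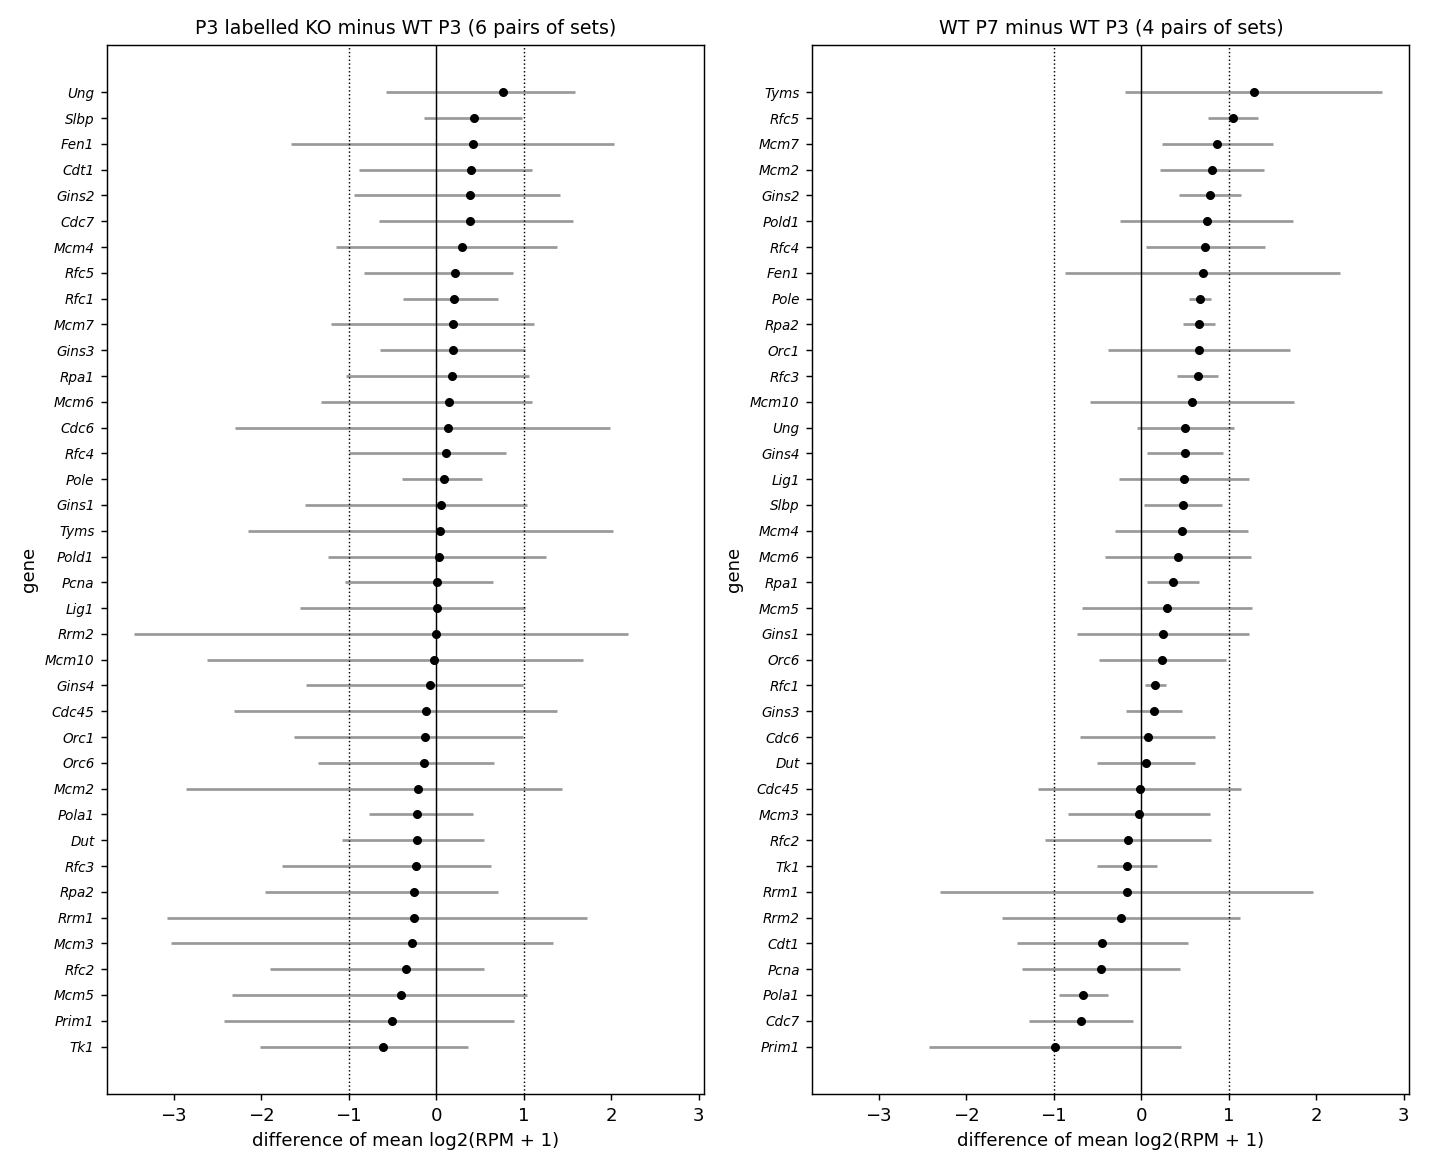
Difference of mean log2(RPM + 1) for each gene (rows) between labelled KO and WT P3 cells (left) and between WT P7 and WT P3 cells (right). Points are group differences, lines the range over pairs of sets, and the vertical lines mark 0 and 1 log2 unit either way. On the left every line for a measured gene crosses 0, and on the right Tyms (1.28) and Rfc5 (1.05) lie past 1.

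WT P7 cells were compared with WT P3 cells, which asks how the machinery differs as spermatogonia mature. The same WT P3 cells serve in both comparisons. The median difference was 0.42 over 37 measured members and 0.17 over all 7669 measured genes, with 26 members higher and 11 lower. Tyms at 1.28 (−0.18 to 2.75) and Rfc5 at 1.05 (0.76 to 1.33) were past 1 log2 unit, 2 of 37 where 7.09% of all genes were past it higher. No member was past it lower, where 3% of genes were. All 4 pairs were higher for 12 of 37 members, against 36.5% of genes, and lower for 2, against 15.6%. The counts past 1 and in all pairs were thus near or below those of all genes, while the median lay above.

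The 12 members higher in all 4 pairs were Mcm2, Mcm7, Gins2, Gins4, Pole, Rfc1, Rfc3, Rfc4, Rfc5, Rpa1, Rpa2 and Slbp. They include 4 of the 5 loader subunits, the single-strand binding subunits that are members, and a few of the helicase and its activators. As 12 of 37 (32.4%) is no more than the 36.5% of all genes, these roles are listed as a description only. After Tyms and Rfc5 the largest differences were Mcm7 at 0.87 (0.24 to 1.5), Mcm2 at 0.81 (0.22 to 1.41), Gins2 at 0.79 (0.43 to 1.14) and Pold1 at 0.75 (−0.24 to 1.73). The 2 members lower in all pairs were Cdc7 at −0.69 (−1.29 to −0.10) and Pola1 at −0.66 (−0.94 to −0.38). The other low members were Prim1 at −0.99 (−2.43 to 0.45), Pcna at −0.46 (−1.36 to 0.44), Cdt1 at −0.44 (−1.42 to 0.53) and Rrm2 at −0.23 (−1.59 to 1.13), whose ranges crossed 0.

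The direction of the median rested on the scale. Relative to the reads on genes it was −0.01, by median ratio −0.00 and after thinning −0.04, where the median of all genes moved by −0.30, −0.29 and −0.31, and by ERCC reads it was 0.45. Relative to all genes the members stayed higher, by 0.25 as deposited and by 0.12, 0.11, 0.10 and 0.25. The split of members higher or lower in all pairs, 12 to 2 as deposited, was 3 to 4 relative to reads on genes, 5 to 5 by median ratio, 4 to 3 after thinning and 3 to 1 by ERCC reads. Of all genes 18.9% were higher and 32.1% lower in all pairs relative to reads on genes, and 19.9% and 31.8% by median ratio. After thinning 18.6% and 31.2% were, and by ERCC reads 26.3% and 10.6%. As shares of 37 members, these counts all lay below those of all genes. Under all these scalings 17 members were higher and 9 lower, and 12 switched sign, among them Rfc1, Rpa1 and Slbp of the list above.

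The sets of WT P7 also pulled apart. Set B alone lay above WT P3 with a median of 0.79 against 0.25 for all genes. It had 11 of 37 members past 1 higher, where 8.98% of genes were. These were Tyms (1.88), Fen1 (1.48), Pold1 (1.46), Rrm1 (1.41), Mcm7 (1.29), Rfc4 (1.19), Mcm10 (1.14), Mcm2 (1.04), Mcm5 (1.03), Mcm6 (1.02) and Orc1 (1.00). Both pairs were higher for 32 of 37, against 56.4% of genes. Set A alone had a median of 0.02 and 6 members past 1 lower, where 8.17% of genes were: Prim1 (−2.17), Rrm1 (−1.74), Cdt1 (−1.37), Pcna (−1.31), Cdc7 (−1.17) and Rfc2 (−1.0). Both pairs were lower for 13 of 37, against 36.7% of genes. Going the other way, Rfc5 was past 1 higher (1.13) in set A alone. The members listed above as higher in all pairs were higher in both pairs of set A by the rule that picked them, which adds no support. With WT P3 set A as the only WT P3 set, 9 of 37 members were past 1 higher (10.4% of genes) and 24 of 37 were higher in both pairs (46.8% of genes). With WT P3 set B as the only one, the median was 0.06, no member was past 1 higher, and 2 were past 1 lower. Shares of all genes were not computed there, so nothing is read from these counts.

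The contrast between lettered sets of the same label was larger than either comparison of labels. It was chosen for description after earlier results of these data were known. In the cells labelled KO, set A lay at least 1 log2 unit below the mean of sets B and C for 32 of 37 measured members, where 15.9% of all genes did. No member lay as far above, where 3.58% of genes did. The median was −1.85 over members and −0.34 over all genes. Largest were Rrm2 (−3.93), Mcm3 (−3.74), Mcm2 (−3.44), Rrm1 (−3.40), Mcm10 (−2.98), Cdc6 (−2.61), Mcm5 (−2.55) and Prim1 (−2.49). All 6 helicase subunits were past 1, with a median of −2.20, as were all 4 licensing genes, the 6 measured activation genes and all 4 strand processing genes. The 5 members not past 1 were Pola1 (−0.13), Slbp (−0.42), Pole (−0.66), Rfc1 (−0.83) and Dut (−0.91). Set A was the lowest of the 5 P3 sets for 35 of 37 members, and for 40.3% of all genes. The exceptions were Slbp, lowest in WT P3 set A, and Pola1, lowest in labelled KO set C.

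Values that moved with this contrast were the Sertoli markers, the stem and progenitor markers and the ERCC share given above. The 7 myoid or stromal markers did so in their summed median, 9.57 RPM (range 0 to 42.5) in set A against 0.131 to 2.14 RPM in the other 6 sets. All 7 were above 1 RPM in some cell of set A, but also in some cell of WT P3 set B. Single cells reached 229 RPM in WT P3 set B and 53.5 RPM in labelled KO set C. The mean level of 5 endothelial markers was 0.78, 0.51 and 0.35 in the labelled KO sets in letter order, but it was also 0.78 in WT P3 set A. The part of these values in the result was not tested. Without the 1 cell low for Ddx4 and Dazl, 33 members were past 1 and the median was −1.89. Without the 11 cells above 50 RPM of summed Sertoli markers, 6 of them in this set, the values were 32 and −1.90. The level of the 4 germ cell markers was 6.94, 7.70 and 7.71 in the labelled KO sets in letter order, a gap smaller than that of the replication genes. Under other scalings the median was −1.73 (reads on genes), −1.38 (median ratio, with 2 of 37 members higher), −2.24 (ERCC) and −1.76 (thinned). Sets B and C differed little from each other: Cdc7 (1.19) was the only member past 1, higher in B, where 6.16% of genes were, and none was lower, where 1.78% of genes were.

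Set A was also the lower set in both WT groups. In WT P7 it lay at least 1 log2 unit below set B for 15 of 37 members (8.68% of genes) and above it for none (2.59% of genes), with a median of −0.90 against −0.14 over all genes. Largest were Rrm1 (−3.15), Prim1 (−2.36), Cdt1 (−1.86), Pcna (−1.70) and Rfc2 (−1.70). In WT P3 it lay below set B for 8 of 37 (1.56% of genes) and above it for none (1.66% of genes), with a median of −0.49 against 0.03. These 8 were Tyms (−1.74), Rrm2 (−1.65), Fen1 (−1.58), Cdc6 (−1.40), Orc1 (−1.40), Mcm10 (−1.21), Rrm1 (−1.10) and Cdc45 (−1.10). The counts rested on how low values are treated and on the scale. With a pseudocount of 10 they were 13 in labelled KO, 2 in WT P7 and 0 in WT P3. Relative to ERCC reads they were 24 in WT P7 and 20 in WT P3, where the median of all genes moved by −0.43 and −0.46. Relative to all genes the members' median was −0.86 and −0.62 there, and −0.75 and −0.52 as deposited. Shares of all genes past 1 were not computed under these settings. WT P7 set A held no Sertoli marker at all, each of the 7 being at 0 in its 12 cells. Whether a letter means the same thing in different groups is not given in the sources used here. Over all 7 sets, labelled KO set A was lowest for 31 of 37 members and 33.3% of genes, and WT P7 set B was highest for 17 of 37 and 21.3% of genes.

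**Figure D4:**
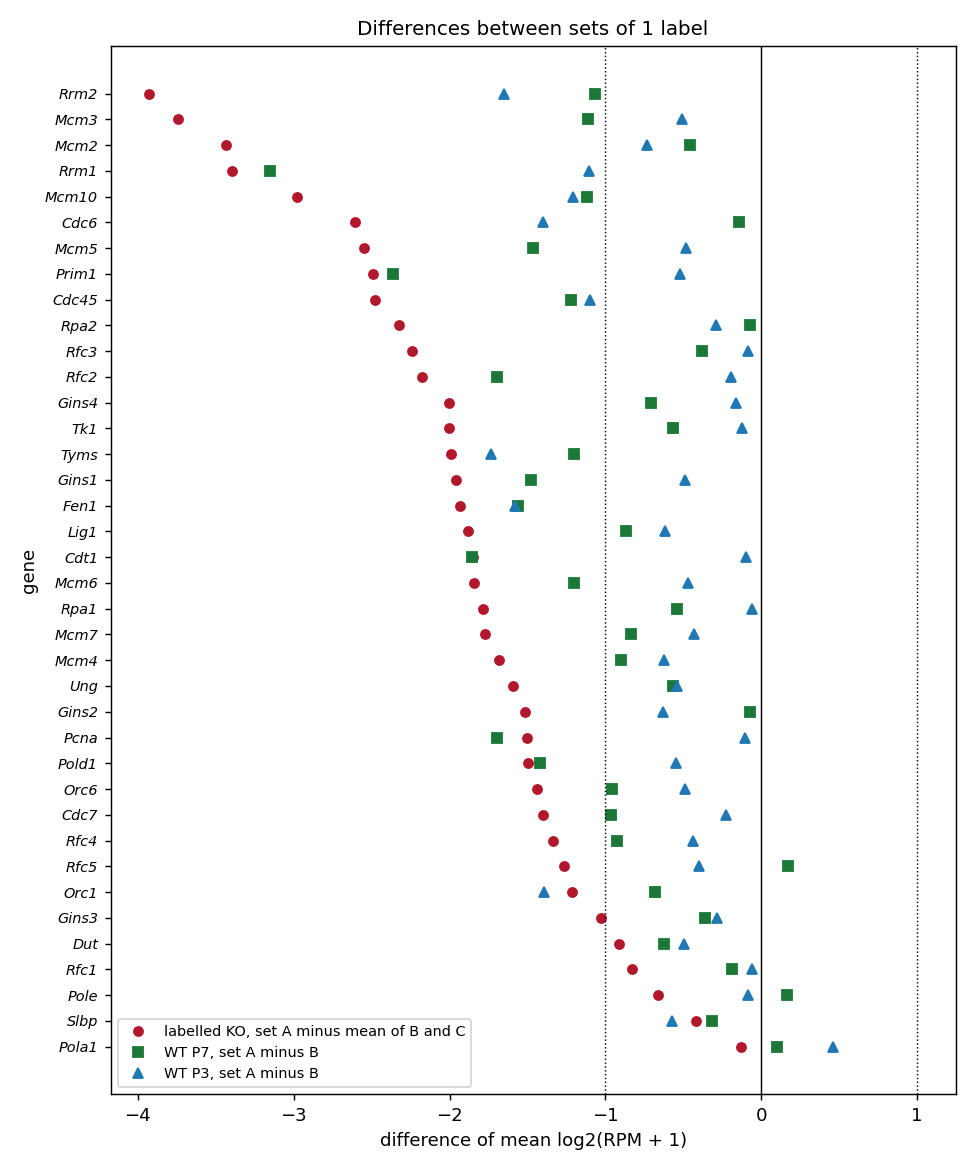
Difference of mean log2(RPM + 1) between set A and the other sets of the same label, for each gene (rows), with 1 marker per label. Labelled KO values reach −3.93 for Rrm2, WT P7 values reach −3.15 for Rrm1, and WT P3 values reach −1.74 for Tyms.

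Replication RNA was set against RNA of 23 genes of G2 and mitosis in the same cells, since the machinery of S phase and that of division peak at different times of the cycle. The mean level of the G2 and mitosis genes was 3.19 and 3.85 in the WT P3 sets, 1.63, 3.82 and 4.36 in the labelled KO sets, and 2.62 and 4.94 in the WT P7 sets. Both programmes were thus low in labelled KO set A and in WT P7 set A. All 23 G2 and mitosis genes lay at least 1 log2 unit below the other sets in each of these, with medians of −2.44 and −2.35. Across cells centred within sets, the 2 mean levels correlated at r = 0.16 (all 71, 69 and 53 cells, where both values share a cell's depth and library). Within single sets r was 0.23 and 0.09 in WT P3, 0.58, 0.37 and 0.12 in labelled KO, 0.68 in WT P7 set A and −0.49 in WT P7 set B. In WT P7 set B, where both programmes were highest on average, cells with more replication RNA had less G2 and mitosis RNA.

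**Figure D5:**
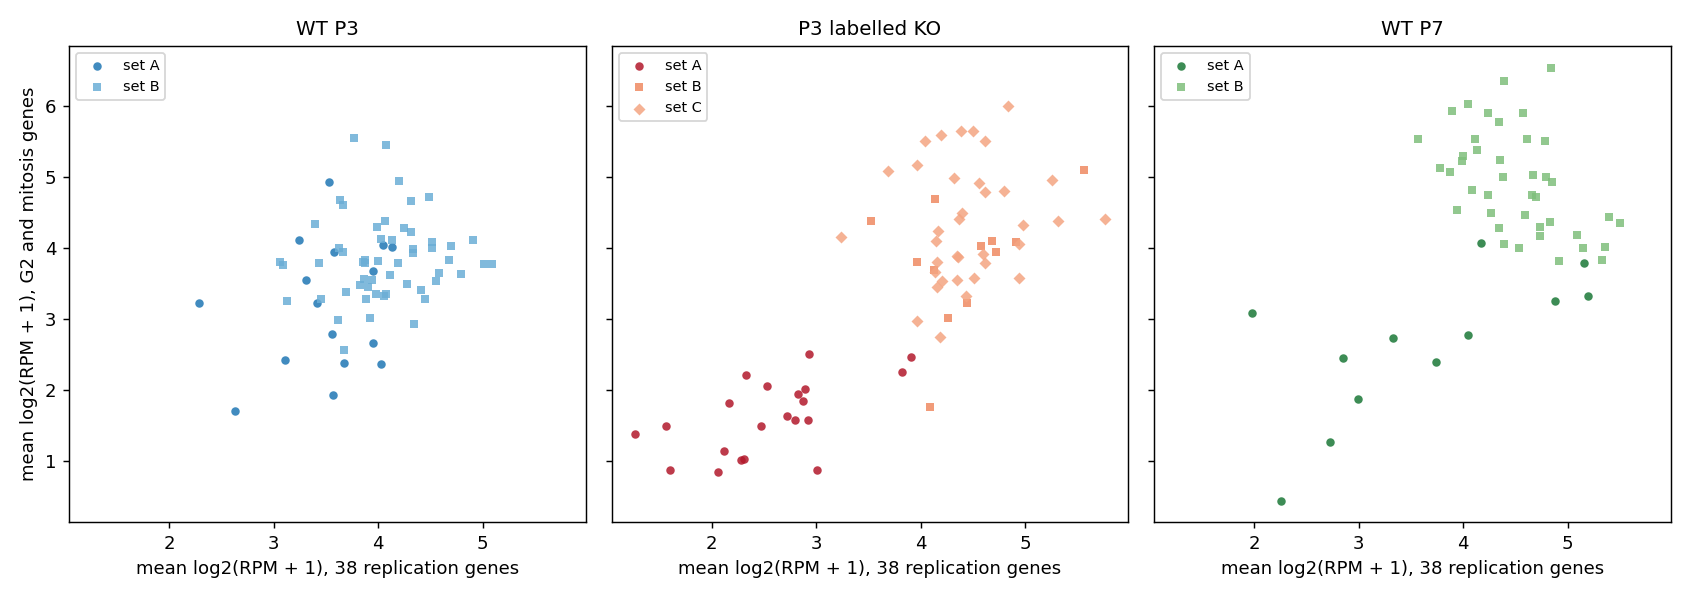
Each point is a cell, with the mean log2(RPM + 1) of the 38 replication genes on the horizontal axis and that of 23 G2 and mitosis genes on the vertical axis, 1 panel per label and 1 marker shape per lettered set. Labelled KO set A lies at the lower left (means of 2.54 and 1.63), and WT P7 set B runs from upper left to lower right (r = −0.49).

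Within sets, the members varied together from cell to cell to differing degrees. The correlation of a member with the mean of the other 37, centred within sets over the cells of all groups, had a median of 0.42, and the level of 7819 other measured genes correlated with the mean of the members at a median of 0.11 (−0.25 to 0.58). Highest were Mcm3 at 0.69, Pcna at 0.62, Mcm2 at 0.60, Lig1 at 0.57 and Rfc2 at 0.56. Lowest were Gins3 at 0.01, Cdc7 at 0.15, Pole at 0.20, Pola1 at 0.21 and Gins4 at 0.24. Over the 703 pairs of members the median was 0.19, from −0.20 for Gins3 and Tyms to 0.57 for Mcm3 with Mcm5 and Mcm3 with Lig1. The other high pairs were Mcm3 with Mcm6 (0.55), Mcm3 with Pcna (0.52) and Orc6 with Rpa2 (0.51). The mean of the members itself correlated with the number of genes detected (0.31), the log2 reads on genes (0.18) and the ERCC share (−0.36). Within single sets these values ran from −0.28 to 0.78, from 0.04 to 0.50 and from −0.77 to 0.34. In the same order they were 0.78, 0.14 and −0.77 in WT P7 set A, and −0.28, 0.50 and 0.34 in WT P7 set B. Centred within sets, the mean of the members correlated with the progenitor gene Zbtb16 at 0.31 and with Id4 at −0.11.

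Genes outside every list used here that followed the mean of the members most closely were Rqcd1 (0.54), Ppil1 (0.52), Tuba3a (0.51), Eif4a3 (0.49), Tonsl (0.49), Ptma (0.49), Syce2 (0.48), Banf1 (0.48), 2810417H13Rik (0.47) and Ranbp1 (0.47). Tonsl acts at stalled forks, and 2810417H13Rik is named Pclaf in RefSeq, a Pcna-associated factor. Of the genes on the pathway lists, Uhrf1 and Tipin (both 0.58) and Clspn (0.55) were closest. Uhrf1 reads hemimethylated DNA behind the fork, and Tipin and Clspn belong to the fork protection complex.

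Other genes of the pathway were taken from lists that hold none of the 38. In the comparison of labelled KO with WT P3, none of 33 measured genes of the other replication machinery, of 18 genes of S phase chromatin and repair, or of 13 of other nucleotide supply was past 1 log2 unit, with medians of 0.02, 0.03 and −0.13. Of 24 G1/S control genes, Cdkn1c, a CDK inhibitor, was higher by 1.52 (−0.31 to 3.54 over pairs). Among the same genes E2f6, a repressive E2F, was lower at −1.13 (−2.36 to 0.20). Of 23 G2 and mitosis genes, Aurkb at −1.24 (−3.00 to 0.85) and Cenpf at −1.01 (−4.23 to 1.47) were lower. Each of these ranges held both signs. Of all measured genes 1.26% were past 1 higher and 0.669% lower. In WT P7 against WT P3, Chtf18, of an alternative clamp loader, was higher by 1.64 (1.22 to 2.05) and Mcm9 by 1.05, while Orc4 was lower at −1.20, among 32 measured. Gart, of purine synthesis, was higher by 1.22 among 13 genes of other nucleotide supply. Cdk4 (1.43, from 0.90 to 1.95) and Cdkn1c (1.26) were higher among 23 G1/S genes, Cdc20 (1.08) and Plk1 (1.26) among 23 G2 and mitosis genes, and no S phase chromatin gene was past 1. Of all measured genes 7.09% were past 1 higher and 3% lower. The counts of genes named here for WT P7 were near those shares.

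The same lists differed between set A and the other sets of the cells labelled KO. Lower by at least 1 log2 unit were 14 of 18 S phase chromatin and repair genes (median −1.66), 9 of 14 other nucleotide genes (−1.09), 11 of 34 other replication genes (−0.83) and 10 of 24 G1/S genes (−0.93), and another 2 G1/S genes were higher. Of all measured genes 15.9% were lower and 3.58% higher, with a median of −0.34. The other replication genes had a smaller median difference than the 38 members. In WT P7, 11 of 31 other replication genes, 8 of 18 S phase chromatin genes, 1 of 13 other nucleotide genes and 2 of 20 G1/S genes were lower in set A, against 8.68% of all measured genes. The last 2 counts are near that share.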

How the data were processed

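RNA of single cells was measured in 3 groups. Per the labels' protocols, a Fluidigm C1 instrument captured the cells, SMARTer reagents with added ERCC RNA gave cDNA, and Nextera XT gave libraries. Tools listed by the submitters' processing notes are HTSeq 0.6.1 and STAR 2.3.0, and the build is mm10; the notes give no annotation or strand setting. The authors deposited a table named TPM, but its values behaved as RPM: on average 100% were whole multiples of 1 step per cell (lowest cell 99.995%, tolerance 0.001 RPM), so the plan's measures were applied to RPM. The table's rows sum to 8.13% to 23.0% of each cell's total. Of 19642 rows, 84 ERCC rows and Rn45s (median 5.64% of the table) were left out. The count test was not run, since each group is 1 sample, and no doublet caller was run.

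A level is the mean over cells of log2(RPM + 1), and group values average the lettered sets without weights. A gene counts as measured at a mean level of at least 1. Differences understate changes of low genes. Intervals are exact (Clopper-Pearson, 95%). The 38 members and the lists were chosen with earlier results of these data known. Values in every set are given for the 6 highest and 6 lowest differences of each comparison and the 5 highest and 5 lowest correlations; other genes are named past 1 log2 unit, at most 4 a list, or as the 10 most alike, and 1 gene that this rule picks is not reported here. Locations and exon overlaps come from GENCODE on GRCm38. Alternatives were other pseudocounts, scalings, filters, thinning and left-out sets. Scripts used Python 3.11.15, numpy 2.4.6, pandas 2.3.3, scipy 1.17.1 and matplotlib 3.10.9, and were tested on simulated data.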

Additional observations from a re-analysis of the deposited data

How the results depend on the processing

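The median differences over members ran from −0.28 to 0.64 for labelled KO against WT P3 and from −0.04 to 0.79 for WT P7 against WT P3 over all alternatives. For labelled KO, members past 1 higher numbered 0 to 5 and lower 0 to 1 when sets were left out 1 at a time, and those of 1 sign in all pairs 0 to 29 higher and 0 to 1 lower. A pseudocount of 0.1 gave 1 past 1 lower, and log2 of the set means gave 1 higher in all pairs. For WT P7, with 2 past 1 higher, 0 lower, 12 higher in all pairs and 2 lower, leaving out sets gave 0 to 11, 0 to 6, 12 to 32 and 2 to 13. Past 1 higher it was 0 with pseudocount 10, reads on genes, median ratio or thinning, 1 with ERCC scaling or cells weighted equally, and 4 with log2 of means. Past 1 lower it was 3 with pseudocount 0.1, 2 with reads on genes, median ratio or thinning, and 1 without the cells above 50 RPM of Sertoli markers. In all pairs higher it was 3 with reads on genes or ERCC, 5 with median ratio, 25 with log2 of means and 4 thinned, and lower it was 4, 1, 5, 0 and 3. The cause of these shifts was not tested, and shares of all genes stand beside these counts only where given above.

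The range between sets was 0.27, 0.96 and 0.44 (WT P3, labelled KO, WT P7) with pseudocount 10, 1.09 in WT P3 with ERCC scaling and 0.43 in WT P7 with log2 of means. Members lower by 1 in set A, 32, 8 and 15 in labelled KO, WT P3 and WT P7, were 13, 0 and 2 with pseudocount 10. ERCC scaling gave 20 and 24 in WT P3 and WT P7, and log2 of means 3 and 4. Shares of all genes past 1 were not computed under these settings. Members detected above 5 RPM had medians of 28 and 31 in WT P3, 19, 32.5 and 33 in labelled KO and 32 in WT P7 set B, and above 0 of 31 and 38 in labelled KO sets A and B. The median correlation was 0.55 in labelled KO set B alone, 0.59 in WT P7 set A alone and 0.32 by median ratio. The other 217 alternative values of whole results, and 1209 of those of single genes, moved by less than the spread used as a limit (a factor of 1.5 for counts), and 43 of single genes moved by more. The alternatives for set A contrasts and for left-out cells were chosen after seeing the data. No paired analysis was possible because the lettered sets carry no replicate numbers that pair cells across labels, and no test was made. Depth limits the low genes: 5 cells held under 100000 reads on genes, the fewest being 25424.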

Other observations

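Genes of G1/S control, which act before replication starts, did not all follow the replication genes in labelled KO set A. Cdkn1c, which encodes the CDK inhibitor p57, had levels of 3.63 and 2.77 in the WT P3 sets, 6.31, 4.55 and 3.32 in the labelled KO sets, and 4.67 and 4.25 in WT P7. Cdkn1b, which encodes the inhibitor p27, had 1.97 in labelled KO set A and 0.73 and 0.60 in the other labelled KO sets, compared with 1.63 and 0.98 in WT P3. These were the 2 of 24 measured G1/S genes higher by at least 1 log2 unit in set A than in sets B and C, where 3.58% of all measured genes were. Another 10 of the 24 were lower by as much, where 15.9% of genes were. Among them was Cdkn1a, also a CDK inhibitor gene, with 0.42 in set A and 1.54 and 1.45 in sets B and C. The cyclin gene Ccnd1 had 1.61 in labelled KO set A and 4.0 and 4.99 in the other labelled KO sets, and Ccnd2 had 5.71 against 7.41 and 7.39. The cyclin gene Ccne2 differed less, at 3.29 against 3.66 and 3.68. The licensing inhibitor Gmnn was low in set A of both labelled KO (2.97, with 5.30 and 4.98 in sets B and C) and WT P7 (2.43, with 5.12 in set B). Gmnn, Cdkn1a, Cdkn1b, Ccnd1, Ccnd2 and Ccne2 were named after their values were seen.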
